A study of Homo sapiens with 6 samples.

Results

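The 9 genes described here mark the first steps of nephron differentiation: POU3F3, IRX1, IRX2, IRX3, HNF4A, LRP2, PODXL, NPHS1 and CLDN1. They were taken by Ensembl identifier from the deposited count table, and 9 of its 60107 gene rows carry them. A nephron forms when progenitor cells condense into a vesicle, which then divides along a proximal to distal axis. The proximal end gives podocytes, the cells whose foot processes form the filter of the glomerulus, and the rest gives the tubule. POU3F3 and the Iroquois genes IRX1, IRX2 and IRX3 encode transcription factors of the middle and distal segments. HNF4A encodes a nuclear receptor of the proximal tubule, and LRP2 encodes megalin, the receptor with which that tubule takes protein back from the filtrate. PODXL encodes podocalyxin, the sialomucin that coats podocytes, and NPHS1 encodes nephrin, the core protein of their slit diaphragm. CLDN1 encodes claudin-1, a tight junction protein found in the parietal epithelium of the glomerulus.

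RNA came from H9, an established human embryonic stem cell line, on day 9 of a 10-day differentiation towards nephron progenitor cells. The 3 libraries written below as replicates 1, 2 and 3 with glutamine were from cells in complete medium. The other 3, replicates 1, 2 and 3 without glutamine, were from cells kept without this amino acid from day 0 through day 9. All 6 libraries share the H9 line and the protocol, and no label gives a sort of the cells or says that replicates were separate cultures, so p-values may measure technical spread. The libraries held 78220507 to 84746566 counts. Nephron progenitor markers were present in both groups: WT1 had a mean of 277 CPM (counts per 1000000 counts of the scaled library) ± 85.5 (SD, n = 3) with glutamine and 359 ± 27.4 without it, and 9 and 10 of 10 progenitor genes were expressed with and without it. SIX2, the defining progenitor factor, was at 6.57, 34.8 and 27.8 CPM in replicates 1 to 3 with glutamine and at 9.70, 7.80 and 7.27 CPM without it. The matched PAX2 values were 150, 17.0 and 12.9 CPM with glutamine and 245, 200 and 146 CPM without it.

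A single library stood apart from its group. Over all 22613 genes tested, log2 CPM of replicate 1 with glutamine had Pearson correlations of 0.9758 and 0.9762 with the other two libraries of its group. Its correlations with the 3 libraries without glutamine ran from 0.9908 to 0.9927, higher than with its own group. These correlations are across genes, which are not independent. Whether this library carries the right label cannot be told from the files, and every mean with glutamine and every fold change with all 6 libraries takes its label as given. The fold change of each of the 9 genes is therefore given with all 6 libraries and again with that library left out.

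All 9 genes had at least 1 count in every library. A gene was called expressed in a group when it reached 1 CPM in all 3 of its libraries. By that rule 8 of 9 genes were expressed without glutamine, all but HNF4A, where 25.2% of all gene rows and 67.1% of the 19628 protein-coding genes were. With glutamine 6 of 9 genes were expressed, IRX1, IRX2, IRX3, LRP2, PODXL and CLDN1, where 24.6% of all rows and 65.2% of protein-coding genes were. POU3F3 and NPHS1 passed the rule in 1 group only, and replicates 2 and 3 with glutamine were below it. In at least 1 group 8 of 9 were expressed, beside 25.8% of all rows and 67.8% of protein-coding genes. At a threshold of 2 CPM, or of 1 CPM per kilobase of exon, 7 of the 9 genes were expressed in at least 1 group. With glutamine, IRX1 and CLDN1 passed neither of these thresholds. CLDN1 had 1.10 and 1.37 CPM in replicates 2 and 3, near the cut-off of 1 CPM, and IRX1 had 1.59 to 1.83 CPM. Their lowest libraries with glutamine were at 0.301 CPM per kilobase for CLDN1 and 0.856 for IRX1.

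**Figure D1:**
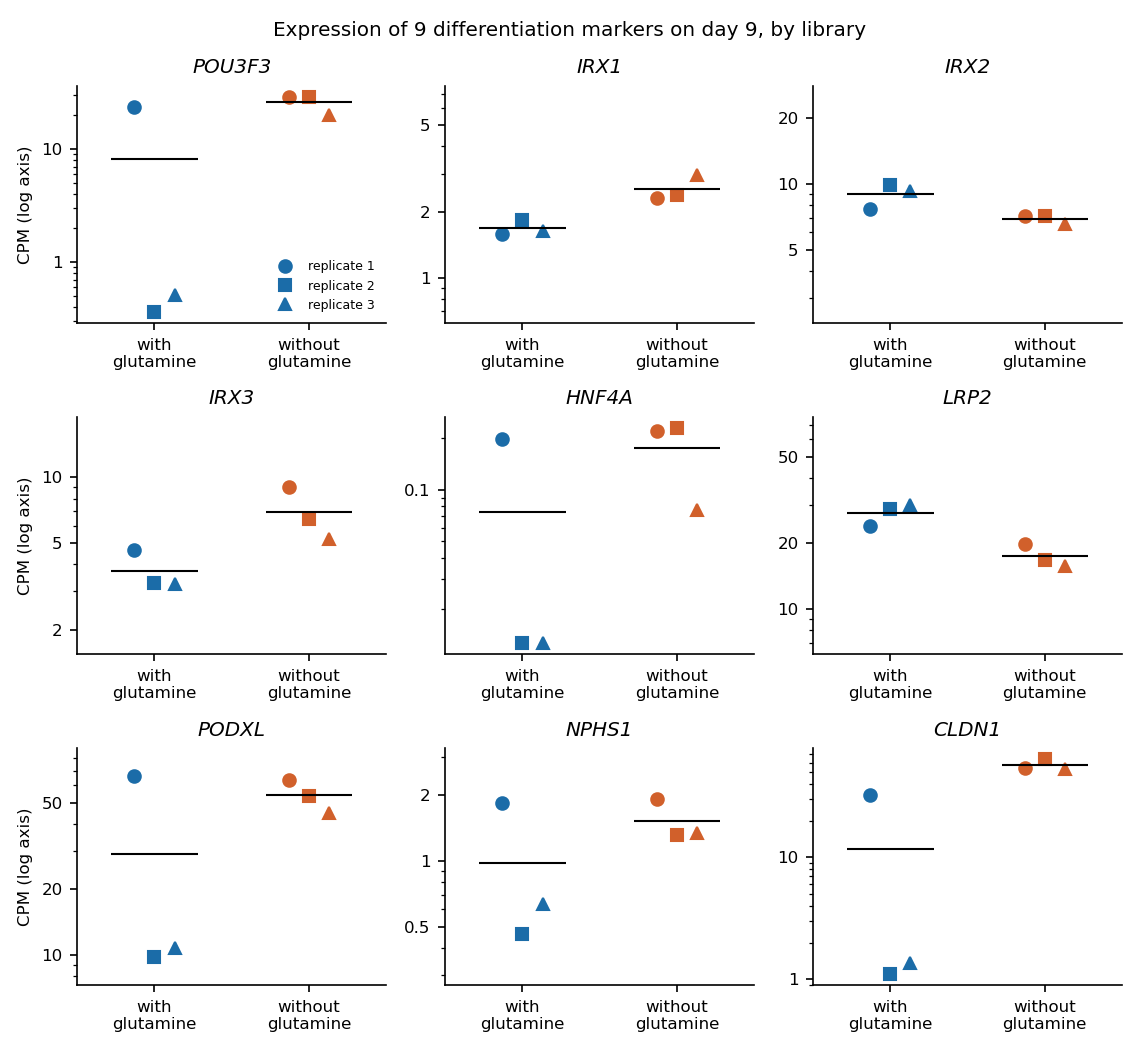
CPM (vertical log axis, with its own scale in each panel) of the 9 genes in the 6 libraries, with glutamine in blue and without it in orange. Each point is 1 library, its shape gives the replicate number and the bar is the arithmetic mean of 3 libraries. POU3F3, HNF4A, PODXL, NPHS1 and CLDN1 are lowest in replicates 2 and 3 with glutamine. HNF4A is next lowest in replicate 3 without glutamine, at 0.0764 CPM.

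The genes fell into 2 patterns. In POU3F3, HNF4A, PODXL, NPHS1 and CLDN1, replicates 2 and 3 with glutamine were low and the other 4 libraries were higher. In IRX1, IRX2, IRX3 and LRP2 the groups did not overlap, and the highest library was at most 2.81 times the lowest, against 4.19 to 81.0 times in the first pattern. In the edgeR quasi-likelihood test, 0 of these 9 passed an adjusted p (Benjamini-Hochberg) of 0.05, where 0.00442% of all genes tested did (1 gene). At an unadjusted p under 0.05 there were 4, IRX1 and IRX3 higher and IRX2 and LRP2 lower without glutamine, where 29.7% of all genes passed, 14.7% higher and 15.0% lower. By DESeq2, IRX1, IRX3 and LRP2 had an adjusted p under 0.05, 3 of 8 with a p-value, and POU3F3 had none. Of all 43005 genes with a DESeq2 p-value, 7.07% did. Those 43005 were not filtered as the 22613 of the edgeR test were, and they include genes without an adjusted p, HNF4A among them. The 7.07% is therefore not a like background for these 8 genes. Of the 9 genes, 5 (55.6%) had groups that did not overlap, the 4 named at the unadjusted p and CLDN1, where 34.2% of all genes tested did, 17.3% higher and 16.9% lower. In these whole-culture RNA samples, fewer cells of a type and less RNA per cell cannot be told apart.

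The promoter sequences of 4 genes are printed because their genes carry the contrast between the patterns: POU3F3 varied most between libraries, IRX1 and IRX2 are chromosome 5 neighbours with opposite differences, and NPHS1 defines podocytes. Each is the 250 bases before the RefSeq start in GRCh38.p14, 5′ to 3′ on the strand of the gene, and capitals mark a match to CAGCTG, an E-box, or GGGGCGGGG, a GC box, on either strand. The windows are chr2:104853865-104854114 on the plus strand for POU3F3, chr5:3595582-3595831 on the plus strand for IRX1, chr5:2751678-2751927 on the minus strand for IRX2 and chr19:35852505-35852754 on the minus strand for NPHS1.
POU3F3: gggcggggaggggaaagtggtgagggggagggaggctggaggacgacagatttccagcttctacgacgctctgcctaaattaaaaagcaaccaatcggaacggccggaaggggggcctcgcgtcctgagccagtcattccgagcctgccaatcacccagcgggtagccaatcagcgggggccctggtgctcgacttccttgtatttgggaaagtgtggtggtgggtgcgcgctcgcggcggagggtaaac
IRX1: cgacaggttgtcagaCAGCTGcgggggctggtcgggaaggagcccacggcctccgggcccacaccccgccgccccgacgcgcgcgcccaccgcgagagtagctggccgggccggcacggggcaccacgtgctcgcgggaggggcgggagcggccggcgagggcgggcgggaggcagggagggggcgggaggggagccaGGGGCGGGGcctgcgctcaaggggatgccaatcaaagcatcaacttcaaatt
IRX2: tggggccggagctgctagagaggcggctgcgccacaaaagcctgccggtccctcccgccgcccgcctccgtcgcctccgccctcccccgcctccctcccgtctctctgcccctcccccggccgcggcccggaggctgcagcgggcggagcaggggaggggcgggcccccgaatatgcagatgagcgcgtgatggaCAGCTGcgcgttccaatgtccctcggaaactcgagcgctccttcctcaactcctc
NPHS1: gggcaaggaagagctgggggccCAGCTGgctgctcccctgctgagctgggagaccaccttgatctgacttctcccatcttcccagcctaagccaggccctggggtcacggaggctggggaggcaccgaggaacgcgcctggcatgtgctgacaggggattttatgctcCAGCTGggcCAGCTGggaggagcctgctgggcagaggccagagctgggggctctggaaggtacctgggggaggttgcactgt
The IRX1 and IRX2 windows had a GC content of 75.2% and 72.8% with 29 and 27 CpG pairs, against medians of 58.0% and 11 over 27305 RefSeq promoters. The POU3F3 window had 62.0% and 18, and the NPHS1 window had 65.6% but 4 CpG pairs, and 30.1% of promoters had fewer. CAGCTG stood once in IRX1, once in IRX2 and 3 times in NPHS1, beginning 228, 82 and 73 bases before its start. Of all promoters, 13.8% held CAGCTG at least once and 0.0916% held it 3 or more times, and 15.4% held GGGGCGGGG, which was found in IRX1. TATAAA, the TATA box, was in 11.1% of promoters, GCGTGGGCG in 0.71%, GTTAAT in 6.22%, CAAAGTCCA in 0.293% and TAATTA in 4.49%, and none of these was in any of the 7 matched genes. A match is a run of letters only. The RefSeq start of NPHS1 lies 16783 bases inside the GENCODE gene, whose furthest start belongs to another transcript, and that of POU3F3 lies 1396 bases before the GENCODE start.

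Among the segment transcription factors, POU3F3 (ENSG00000198914, GRCh38 chr2:104855511-104858574) had the widest range. POU3F3 stood at 23.6, 0.359 and 0.509 CPM in replicates 1 to 3 with glutamine, and at 29.1, 28.7 and 19.9 CPM without it. Replicate 1 with glutamine lay inside the range of the libraries without glutamine, so the groups overlapped, and the highest library was 81.0 times the lowest. The fitted log2 difference, without minus with glutamine, was 1.66 (SE 1.22), with an edgeR adjusted p of 0.383. With replicate 1 with glutamine left out it was 5.90 (SE 0.26), with an edgeR adjusted p of 3e-07. Leaving out 1 library thus took the difference past the threshold.

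IRX1 (ENSG00000170549, chr5:3596054-3601403) was low in every library, at 1.59, 1.83 and 1.64 CPM with glutamine and 2.31, 2.39 and 2.95 CPM without it. The groups did not overlap, and replicate 1 with glutamine was the lowest of the 6. IRX1 had a log2 difference of 0.60 (SE 0.17), with an edgeR adjusted p of 0.0848, and 0.56 (SE 0.17; edgeR adjusted p 0.025) with that library left out. IRX2 (ENSG00000170561, chr5:2745845-2751662) differed in the other direction, with 7.69, 9.86 and 9.34 CPM with glutamine and 7.10, 7.12 and 6.58 CPM without it. Its groups also did not overlap, and the gap between the nearest libraries was small. For IRX2 the log2 difference was -0.37 (SE 0.13; edgeR adjusted p 0.115) with all libraries and -0.47 (SE 0.10; edgeR adjusted p 0.00377) with replicate 1 left out. IRX1 and IRX2 start 844.4 kb apart on chromosome 5.

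IRX3 (ENSG00000177508, chr16:54283304-54286763), from the second Iroquois cluster, stood at 4.63, 3.28 and 3.23 CPM with glutamine and 9.07, 6.44 and 5.21 CPM without it. No library with glutamine reached the lowest one without it. IRX3 had a log2 difference of 0.90 (SE 0.24; edgeR adjusted p 0.0829), and 1.09 (SE 0.22; edgeR adjusted p 0.00315) with replicate 1 left out. Within the Iroquois family the other three genes were lower in level. IRX4 had means of 0.0908 CPM ± 0.124 with and 0.663 ± 0.274 without glutamine (SD, n = 3), and IRX5 had 0.204 ± 0.145 and 0.934 ± 0.152. Neither pair of groups overlapped, and the edgeR adjusted p was 0.0746 for IRX4 and 0.0679 for IRX5. IRX6 stood at 1.36, 0.0512 and 0.102 CPM with glutamine and 0.732, 0.664 and 0.866 CPM without it, so its highest value was in replicate 1 with glutamine. IRX2 was thus the 1 of 6 Iroquois genes with a lower mean without glutamine.

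Of the POU3F relatives, POU3F2 differed from POU3F3 and POU3F1 shared its lowest libraries. POU3F2, another POU factor, was at 42.6 CPM ± 4.58 with and 51.8 ± 5.60 without glutamine (SD, n = 3), a log2 difference of 0.28 (SE 0.11; edgeR adjusted p 0.152). POU3F2 therefore ran within a narrow range in the same 6 libraries in which POU3F3 ran from 0.359 to 29.1 CPM. POU3F1 was at 0.271, 0.0128 and 0.0509 CPM in replicates 1 to 3 with glutamine and 0.57, 0.957 and 1.18 CPM without it. As in POU3F3, replicates 2 and 3 with glutamine were its lowest libraries. The groups of POU3F1 did not overlap, with an edgeR adjusted p of 0.0703. PANTR1, a noncoding gene whose start lies 2328 bases from that of POU3F3 on the opposite strand, had 1.57, 0.128 and 0.0636 CPM with glutamine and 1.52, 1.99 and 1.74 CPM without it. Its low libraries were the same as those of POU3F3. With replicate 1 with glutamine left out, edgeR gave larger log2 differences for the relatives that were low in level: 5.02 for IRX4 (adjusted p 0.00032), 2.94 for IRX5 (0.000116), 3.28 for IRX6 (0.000118) and 4.75 for POU3F1 (0.000247). POU3F2 stood at 0.38 (edgeR adjusted p 0.0101).

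Neurons also express POU3F and IRX genes. The 14 neural markers summed to 73.0, 48.0 and 53.6 CPM with glutamine and 59.0, 59.5 and 84.6 CPM without it, with NKX2-2 at 3 counts or fewer in every library. Most of each sum without glutamine was DCX, a gene of migrating neurons, at 63.4, 18.4 and 19.2 CPM with and 51.0, 49.1 and 75.8 CPM without glutamine. Other markers differed in the opposite direction. Of 10 tested, 1 was higher and 5 lower at an unadjusted p under 0.05 in the edgeR test, with a median log2 difference of -0.23. Of all genes tested, 14.7% were higher and 15.0% lower at that p. POU4F1, a sensory neuron factor, had means of 9.94 CPM with and 0.224 CPM without glutamine. The part of these cells in the POU3F and IRX results was not tested.

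The proximal tubule genes HNF4A and LRP2 were far apart in level. HNF4A (ENSG00000101076, chr20:44355700-44434596) had 16, 1 and 1 counts in replicates 1 to 3 with glutamine and 19, 18 and 6 counts without it, or at most 0.23 CPM. The exact Poisson 95% interval, which covers counting error only, was 9.15 to 26.0 counts for the 16 and 0.0253 to 5.57 counts for each 1. For the 6 in replicate 3 without glutamine the interval was 2.2 to 13.1 counts, which overlaps that of each 1. HNF4A was thus detected but not expressed by the rule above, and its groups overlapped through replicate 1 with glutamine. For HNF4A the log2 difference was 1.21 (SE 0.82; edgeR adjusted p 0.345), and 3.64 (SE 0.75; edgeR adjusted p 0.00281) with that library left out, on 2 single counts. HNF4G, its close relative, stood at 8.36, 0.858 and 0.598 CPM with glutamine and 10.3, 9.39 and 8.02 CPM without it. HNF4G was above HNF4A in every library, and its low libraries were the same. Endoderm also expresses HNF4A: 14 endoderm markers summed to 14.4, 6.80 and 6.27 CPM with glutamine and 19.1, 18.6 and 21.3 CPM without it, 2 of 14 were expressed in each group, and AFP, TTR and SERPINA1 were at 3 counts or fewer in every library. Most of the sum without glutamine was GATA6, a factor of endoderm and mesoderm, at 7.71, 2.04 and 1.72 CPM with and 13.2, 12.1 and 15.4 CPM without glutamine. SOX17, a factor of definitive endoderm and endothelium, had means of 0.605 and 0.196 CPM, lower without glutamine and without overlap, and FOXA3 had 1.25 CPM in both groups. The part of such cells in the HNF4A result was not tested.

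LRP2 (ENSG00000081479, chr2:169127109-169362685) was expressed in all 6 libraries, at 24.1, 28.6 and 29.8 CPM with glutamine and 19.8, 16.7 and 15.8 CPM without it. The groups did not overlap, with the libraries without glutamine lower, and replicate 1 with glutamine was the lowest of its group. The log2 difference was -0.66 (SE 0.13; edgeR adjusted p 0.0682) with all libraries and -0.74 (SE 0.10; edgeR adjusted p 0.000366) with that library left out. LRP2 had the lowest unadjusted p of the 9 genes in the edgeR test, 0.00112. LRP1, the related receptor of many tissues, had means of 372 and 362 CPM.

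PODXL (ENSG00000128567, chr7:131500262-131558217) was the podocyte gene with the higher level, at 66.4, 9.76 and 10.8 CPM with glutamine and 63.3, 53.7 and 45.0 CPM without it. Replicate 1 with glutamine was the highest of all 6 libraries, and the groups overlapped. The log2 difference was 0.90 (SE 0.70; edgeR adjusted p 0.413), and 2.40 (SE 0.14; edgeR adjusted p 1.82e-06) with that library left out. Of its relatives, also sialomucins, PODXL2 was at 75.8, 50.3 and 54.1 CPM with glutamine and 91.0, 81.0 and 70.9 CPM without it. As in PODXL, replicates 2 and 3 with glutamine were the lowest and the groups overlapped, over a narrower range. For PODXL2 the log2 difference was 0.43 (SE 0.17; edgeR adjusted p 0.148), and 0.64 (SE 0.1; edgeR adjusted p 0.00098) with replicate 1 with glutamine left out. The other relative differed in the opposite direction. CD34, a marker of blood and endothelial precursors, had 1.60, 6.75 and 4.95 CPM with glutamine and 0.849, 0.906 and 0.904 CPM without it, lower in all 3 libraries without glutamine (edgeR adjusted p 0.0706, and 3.2e-06 with replicate 1 left out). PODXL is also present on pluripotent and endothelial cells. The 10 pluripotency genes summed to 437 to 519 CPM with and 425 to 515 CPM without glutamine, with NANOG and TDGF1 at 3 counts or fewer, and 9 endothelial genes to 53.6 to 98.1 and 50.0 to 87.1 CPM. The genes of both lists differed among themselves. LIN28A was at 156, 310 and 322 CPM with and 152, 132 and 125 CPM without glutamine, and KDR, an endothelial receptor, at 24.3, 82.3 and 69.8 CPM with and 13.5, 12.7 and 17.5 CPM without it. DPPA4, another gene of the pluripotency list, was at 184, 126 and 113 CPM with and 255, 269 and 212 CPM without glutamine, and EMCN, an endothelial sialomucin, at 14.6, 1.81 and 1.83 CPM with and 22.8, 42.5 and 53.7 CPM without it. Within the group with glutamine, DPPA4 and EMCN were thus highest in replicate 1, as PODXL was, and LIN28A and KDR lowest. The part of either cell type in the PODXL result was not tested.

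NPHS1 (ENSG00000161270, chr19:35825964-35869287) was at the edge of the expression rule, with 1.85, 0.461 and 0.636 CPM with glutamine and 1.93, 1.31 and 1.34 CPM without it. Replicates 2 and 3 with glutamine held 36 and 50 counts, the other 4 libraries 103 to 166, and the groups overlapped. The log2 difference was 0.63 (SE 0.48; edgeR adjusted p 0.398), and 1.48 (SE 0.27; edgeR adjusted p 0.00185) with replicate 1 left out. NPHS1 overlaps 2 genes on the opposite strand, APLP1 in 4.25% and KIRREL2 in 1.96% of its exon bases. APLP1 was at 44.3, 26.6 and 27.4 CPM with glutamine and 49.3, 48.0 and 53.1 CPM without it, far above NPHS1 and low in the same libraries. The counting is not stated to use strand, so reads from these overlaps cannot be told apart, and their part in the NPHS1 values was not tested.

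CLDN1 (ENSG00000163347, chr3:190305701-190322475) stood at 32.4, 1.10 and 1.37 CPM with glutamine and 53.7, 64.4 and 52.9 CPM without it. Here replicate 1 with glutamine lay between the groups, 26.2 times the mean of the other two libraries with glutamine and 0.569 times the mean without it. The groups therefore did not overlap, yet the log2 difference of 2.29 (SE 1.12) had an edgeR adjusted p of 0.215. With that library left out it was 5.53 (SE 0.15; edgeR adjusted p 2.57e-08). CLDN16, whose start lies 66 bases away on the opposite strand, had 0.160, 0.0640 and 0.0764 CPM with glutamine and 0.546, 0.459 and 0.446 CPM without it (log2 difference 2.25, SE 0.33; edgeR adjusted p 0.0679). It encodes a claudin of the thick ascending limb, and its groups did not overlap. Surface ectoderm also makes claudin-1: 10 of its markers summed to 10.6, 5.16 and 5.01 CPM with glutamine and 11.5, 9.06 and 6.71 CPM without it, with KRT5, KRT14 and KRT15 at 3 counts or fewer. The 8 nephric duct genes summed to 98.9, 13.3 and 11.1 CPM with and 164, 154 and 123 CPM without glutamine, with AQP2 at 3 counts or fewer. Of these 8 genes, 4 were expressed with and 5 without glutamine. Most of each nephric duct sum without glutamine was EMX2, whose values are given under the other observations. The part of either list in the CLDN1 result was not tested.

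**Figure D2:**
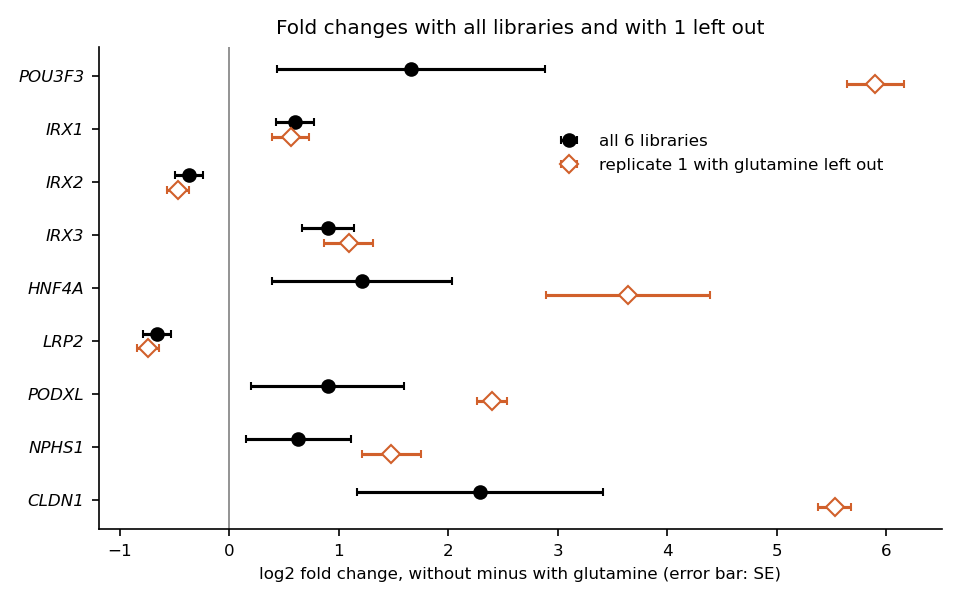
Log2 fold change without minus with glutamine (horizontal axis) of the 9 genes in the edgeR fit, with bars of 1 standard error. Filled circles use all 6 libraries and open diamonds leave out replicate 1 with glutamine. The 5 genes of the first pattern move far to the right when it is left out, POU3F3 from 1.66 to 5.90, and the other 4 move little.

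With replicate 1 with glutamine left out, 9 of 9 genes had an edgeR adjusted p under 0.05, 7 higher and 2 lower, where 41.3% of the 23164 genes then tested did, 22.3% higher and 19.0% lower. No direction changed. That library was nearer to the libraries without glutamine than to its own group in log2 CPM for 6 of the 9 genes, where this held for 62.1% of all genes tested. The 6 were the 5 genes of the first pattern and IRX2. For POU3F3, HNF4A and NPHS1 it lay inside the range of the libraries without glutamine, as it did for 36.6% of all genes.

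Levels of different genes were compared per kilobase of exon. Without glutamine the order of mean CPM per kilobase was CLDN1 at 15.6 ± 1.75 (SD, n = 3), POU3F3 at 8.45 ± 1.70, PODXL at 7.85 ± 1.33, IRX3 at 2.37 ± 0.677, IRX2 at 2.05 ± 0.0904, IRX1 at 1.37 ± 0.189, LRP2 at 1.07 ± 0.131, NPHS1 at 0.280 ± 0.0639 and HNF4A at 0.0240 ± 0.0118. Of the neighbours in that order, POU3F3 and PODXL, and IRX3 and IRX2, overlapped between libraries, and the other pairs did not. CLDN1 was above 84.4% of protein-coding genes and HNF4A above 18.9%. With glutamine the order was led by PODXL at 4.22 ± 4.72 CPM per kilobase, CLDN1 at 3.17 ± 4.91, POU3F3 at 2.67 ± 4.37 and IRX2 at 2.65 ± 0.335, whose libraries overlapped from one to the next. LRP2 followed at 1.69 ± 0.187, IRX3 at 1.28 ± 0.274, IRX1 at 0.908 ± 0.0683, NPHS1 at 0.180 ± 0.138 and HNF4A at 0.0102 ± 0.0146, and of these neighbours LRP2 and IRX3 overlapped. LRP2 thus stood above IRX3 and IRX1 with glutamine and below both without it. The lead of PODXL, CLDN1 and POU3F3 with glutamine rested on replicate 1. With that library left out their means were 1.49, 0.338 and 0.142 CPM per kilobase, and IRX2 led at 2.84, followed by LRP2 at 1.80, with IRX3 at 1.12, IRX1 at 0.935, NPHS1 at 0.101 and HNF4A at 0.00175.

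**Figure D3:**
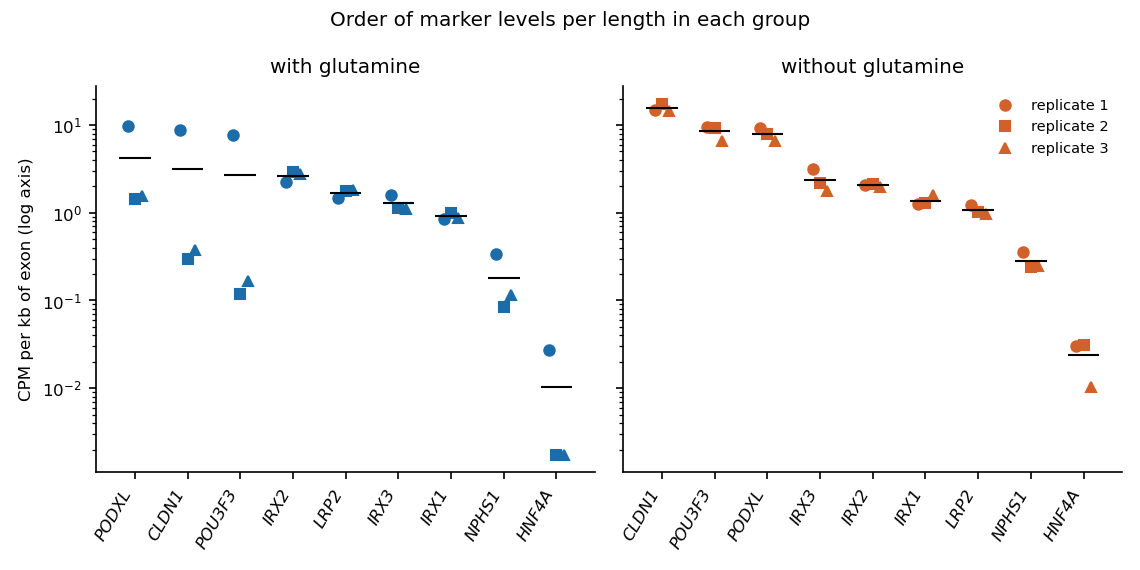
CPM per kilobase of exon (log axis) of the 9 genes in each group, ordered by the group mean, with 1 point per library. Without glutamine CLDN1 leads at a mean of 15.6 and HNF4A is last at 0.0240, and with glutamine the points of the first 3 genes spread widely, with replicate 1 the highest.

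Other genes of the same fates were read from lists. Of 20 early nephron genes, 16 were expressed with and 19 without glutamine, and the median log2 difference was 1.03, beside 0.00 over all genes tested. Groups did not overlap for 8 higher and 1 lower of them, 45.0%, beside 34.2% of all genes. None had an edgeR adjusted p under 0.05. At an unadjusted edgeR p under 0.05 there were 5 higher and 1 lower of 20, beside 14.7% higher and 15.0% lower of all genes tested. JAG1, the Notch ligand of the vesicle, was at 650, 118 and 98.8 CPM with glutamine and 903, 854 and 721 CPM without it. LHX1, a transcription factor of the vesicle, was at 71.8, 4.51 and 4.66 CPM with and 137, 114 and 89.5 CPM without glutamine. In both the low libraries were again replicates 2 and 3 with glutamine. SOX9 had the opposite sign, with 45.0, 53.2 and 52.9 CPM with and 37.4, 32.5 and 33.5 CPM without glutamine (log2 difference -0.55, SE 0.10; edgeR adjusted p 0.0679, and 0.000241 with replicate 1 left out).

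Of 24 podocyte genes other than PODXL and NPHS1, 19 were expressed with and 21 without glutamine. Of the 23 tested, 4 were higher and 0 lower without overlap, 17.4%, beside 34.2% of all genes tested. The median log2 difference was 0.14. None had an edgeR adjusted p under 0.05. At an unadjusted edgeR p under 0.05 there were 6 higher and 1 lower of 23, beside 14.7% higher and 15.0% lower of all genes tested. TCF21, a podocyte and stromal transcription factor, was at 3.96, 0.640 and 0.395 CPM with and 7.17, 9.37 and 10.6 CPM without glutamine, a log2 difference of 2.43 (SE 0.69; edgeR adjusted p 0.0864), or 4.13 (SE 0.26; edgeR adjusted p 2.27e-06) with replicate 1 left out.

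Of 22 proximal tubule genes, 6 were expressed in each group, and the median log2 difference of the 16 tested was 0.13, with 2 higher and 3 lower without overlap (31.2%). None had an edgeR adjusted p under 0.05. At an unadjusted edgeR p under 0.05 there were 1 higher and 3 lower of 16, beside 14.7% higher and 15.0% lower of all genes tested. GATM, the first enzyme of creatine synthesis, was at 9.66 CPM ± 3.01 with and 19.3 ± 0.643 without glutamine (SD, n = 3). ANPEP, a brush border peptidase, was at 2.44 ± 1.36 and 0.397 ± 0.0818 CPM. The transporters SLC22A2, SLC22A6 and SLC22A8 were at 3 counts or fewer in every library. Of 19 loop and distal tubule genes, 7 were expressed with and 11 without glutamine, the median of the 15 tested was 0.61, and 7 were higher and 0 lower without overlap (46.7%). By the edgeR test 0 of these 15 had an adjusted p under 0.05, and 6, all higher, had an unadjusted p under 0.05. Of all genes tested, 14.7% were higher at that unadjusted p. UMOD, which marks the mature thick ascending limb, was at 3 counts or fewer in every library. Of 20 junction genes, 19 were tested, with 7 higher and 4 lower without overlap (57.9%) and a median of 0.28. At an unadjusted p under 0.05 in the edgeR test 6 were higher and 3 lower, beside 14.7% and 15.0% of all genes tested. None passed the adjusted threshold. Of 14 paralogs of the 9 genes, 13 were tested, with 5 higher and 2 lower without overlap (53.8%) and a median of 0.56. At an unadjusted edgeR p under 0.05 there were 6 higher and 2 lower of these 13, beside 14.7% and 15.0% of all genes tested. The adjusted threshold was passed by 0 of them. For the tubule, junction and paralog lists, the share without overlap stands beside 34.2% of all genes tested, 17.3% higher and 16.9% lower. CLDN5, the claudin of endothelium, was at 13.7, 0.154 and 0.127 CPM with and 34.1, 14.3 and 13.3 CPM without glutamine, and CLDN11 at 45.0, 31.5 and 34.2 CPM with and 26.5, 21.7 and 23.0 CPM without it. CLDN5 shared its low libraries with CLDN1, and CLDN11 differed in the other direction.

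**Figure D4:**
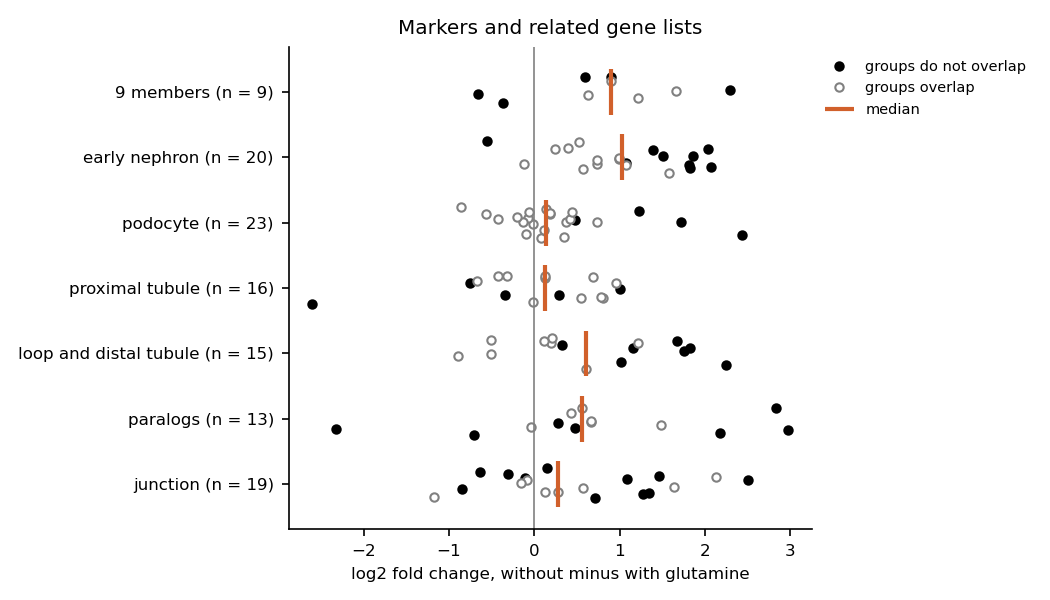
Log2 fold change without minus with glutamine (horizontal axis) of every tested gene of the 9 markers and 6 related lists, with 1 point per gene, filled where the 3 libraries of each group do not overlap. The short vertical line is the list median, 1.03 for the early nephron list and 0.14 for the podocyte list.

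With replicate 1 with glutamine left out, edgeR called 17 early nephron genes higher and 2 lower at an adjusted p under 0.05 (median log2 difference 1.91), 10 podocyte genes higher and 3 lower (0.19), 4 proximal tubule genes higher and 2 lower (0.14), 9 loop and distal tubule genes higher and 0 lower (1.49), 10 paralogs higher and 2 lower (1.27), and 10 junction genes higher and 4 lower (0.49). In that order the lists held 20, 23, 16, 15, 13 and 19 tested genes. The background for these counts is the 41.3% of all genes called in that fit, 22.3% higher and 19.0% lower.

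The genes with the nearest profile over the 6 libraries were found among 13364 protein-coding genes, by the root mean square difference of log2 CPM centred on each gene's mean. For POU3F3 they were SLC30A3 at 0.18, NPTX1 at 0.19 and RASAL1 at 0.19. For CLDN1 they were PLPPR1 at 0.17, HES2 at 0.20 and PPP1R14C at 0.21. For PODXL they were CD6 at 0.070, TRPM5 at 0.080 and GLDC at 0.10, and for NPHS1 AK7 at 0.058, GPER1 at 0.13 and AFAP1L2 at 0.15. All of these have the first pattern by construction of the measure. For the second pattern they were CAMK4, ANKS1B and G0S2 at 0.080 to 0.10 for IRX1, MCCC2, SLC25A43 and UVRAG at 0.027 to 0.035 for IRX2, PKMYT1, ID1 and CHST7 at 0.057 to 0.070 for IRX3, and NOD1, TMEM37 and PALD1 at 0.030 to 0.064 for LRP2. HNF4A was too low for this measure.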

How the data were processed

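The authors deposited raw counts, 1 row per Ensembl gene, and a normalized table, a signal that equals the deposited counts divided by 1 constant per library (0.9766 to 1.0779), the median-of-ratios size factors. Per the submitters' processing notes, cutadapt, Trim Galore, FastQC, STAR 2.5.2b and DESeq2 were used with GRCh38. The counting program, the annotation and the strand setting are not given in the sources used here. Column headings name days 0 and 9, although all samples are labelled day 9, and columns were assigned through the sample descriptions. Every direction rests on that assignment.

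Symbols, positions and exon lengths came from GENCODE 29 on GRCh38, which matched 56531 of 60107 rows. The deposited counts were tested with edgeR 4.0.16 in R 4.3.3: the quasi-likelihood F test, TMM scaling and filterByExpr, with both groups of 3 in 1 fit and p-values adjusted by the Benjamini-Hochberg method over 22613 genes. The script was tested on simulated data. CPM are counts per 1000000 of the TMM-scaled library size, and CPM per kilobase divides them by the union of annotated exons. Log2 profiles used a prior count of 2. Promoters are RefSeq sequences on GRCh38.p14, matched by symbol for 7 of the 9 genes (IRX3 and PODXL have no entry). The windows of LRP2 and CLDN1 hold annotated exon and are not shown.

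The 9 genes, the 13 lists and the tests were chosen with earlier results of these data known. From each list the text names the 4 genes of the highest level and the 2 highest and 2 lowest fold changes among genes of at least 1 CPM, or some of these. Paralogs, genes starting within 5 kb of a member or overlapping it, and the 3 nearest profiles per gene were named as well. SOX17 and the genes at 3 counts or fewer were named after their values were seen. Alternatives were DESeq2 1.42.0, limma-voom (limma 3.58.1), other scalings and filters, a replicate block and each library left out. Some items of these lists are not reported here.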

Additional observations from a re-analysis of the deposited data

How the results depend on the processing

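No fold change of the 9 genes reversed: 131 refitted values stayed short of the threshold and 12 passed it, 9 without replicate 1 with glutamine and 3 by DESeq2. Leaving out each library in turn gave 0 to 9573 genes called at an adjusted p under 0.05 and 0 to 9 of the 9 genes. At an unadjusted p under 0.05 there were 1769 to 6039 genes higher, 1919 to 5416 lower and 3 to 9 of the 9 genes. Groups did not overlap for 8542 to 14673 genes and for 5 to 9 of the 9. The upper ends were without replicate 1 with glutamine; without replicate 1 without glutamine 17 genes were called. Of all genes, 1 was called by the edgeR fit used, 3041 by DESeq2, 2 with no filter, and 0 with upper-quartile scaling, with library size alone, with legacy = TRUE, by limma-voom and with a replicate block. DESeq2 called 3 of the 9 genes. With all 6 libraries, limma-voom moved POU3F3 to a log2 difference of 3.94 and CLDN1 to 3.93, and the replicate block to 3.57 and 3.92. The median of the proximal tubule list turned from 0.13 to -0.01 with no filter and to -0.012 with DESeq2, and the cause was not tested. At an unadjusted p under 0.05 the split was 3334 genes higher and 3384 lower, against 2628 and 4295 with upper-quartile scaling.

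Deviations from the group means had r of -0.021, 0 and 0.028 between same-numbered libraries, and 1 of 6 libraries correlated best with its own number. With 3 libraries per group and replicate 1 with glutamine apart from its group, these values cannot tell whether a number marks a shared culture. No label says that it does, so the numbers were not taken as pairs. With the replicate block, 7 of the 9 genes had an unadjusted p under 0.05 in place of 4, and none passed the adjusted threshold. The lowest count was 36 in NPHS1, 28 in POU3F3 and 1 in HNF4A. With replicate 1 with glutamine left out, the POU3F3 level with glutamine rests on 28 and 40 counts. Counting error is relatively larger at low counts, and the limit of what these depths resolve was not tested.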

Other observations

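C5orf38, a protein-coding gene whose start lies 469 bases from that of IRX2 on the opposite strand, was at 0.456, 0.474 and 0.509 CPM in replicates 1 to 3 with glutamine and 0.674, 0.562 and 0.586 CPM without it. Its groups did not overlap and its mean was higher without glutamine, the opposite direction to IRX2. The log2 difference was 0.34 (SE 0.19; edgeR adjusted p 0.269).

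EMX2, a transcription factor of the nephric duct, was at 65.2, 3.76 and 3.79 CPM with glutamine and 122, 111 and 84.9 CPM without it. Replicates 2 and 3 with glutamine were its low libraries, as in POU3F3 and CLDN1. PAPPA2, a protease gene of the loop and distal tubule list, was at 7.06, 1.63 and 1.95 CPM with glutamine and 9.58, 11.7 and 16.6 CPM without it.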
